A study of Mus musculus with 24 samples.

Results

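TRAJ37, TRAJ35, TRAJ34, TRAJ33, TRAJ32, TRAJ31 and TRAJ30 are neighbouring joining (J) segments in the middle of the mouse T cell receptor alpha locus. They were taken by name from the columns of the alpha chain (Tcra) tables and make up 7 of the 43 J segments listed there. RNA came from thymocytes of C57BL/6 mice aged 4 to 12 weeks, with 3 Tcra libraries from wild-type mice and 3 from mice lacking Satb1, a chromatin organiser of thymocytes. The sample labels write the mutant genotype as Satb1-/- and the design text as Satb1cKO, a conditional knockout whose Cre driver is not named, and no label says whether replicates are separate mice or pools, so the p-values below measure only the spread between these libraries. Each library was amplified by 5′ RACE from a primer in the constant region, and each value is a V–J pair's percentage of all pair assignments in its library. The tables hold receptor segments and no other genes, so neither the loss of Satb1 nor the identity of the cells could be checked in them.

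An alpha chain gene is assembled in developing thymocytes by joining a V segment to a J segment. The first joins use J segments at the 5′ end of the array together with V segments close to it, and further rounds on the same allele replace them with more distant V segments and more 3′ J segments until the cell is selected or dies. A segment in the middle of the array is thus reached after the 5′ end and before the 3′ end. TRAJ33 has a further role: joined to TRAV1, it forms the invariant alpha chain of mucosal-associated invariant T cells (MAIT cells), which recognise vitamin B2 metabolites presented by the molecule MR1.

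The 7 segments lie on the plus strand of chromosome 14 within 8407 bases (GRCm38, GENCODE M21), the first of them starting 24238 bases downstream of the start of TRAJ58. Each is a single short coding exon that ends in a splice site toward the constant region. The coding sequences are shown because the J segment is what defines each column, and because TRAJ33 differs from its neighbours in the stretch most conserved among them. Capitals mark that stretch, the 14-base block with the most positions shared by the 7 sequences (7 positions, written TNNGGNNNNGGNAC), which encodes the conserved turn after the antigen-binding loop.
TRAJ37, chr14:54181518-54181577: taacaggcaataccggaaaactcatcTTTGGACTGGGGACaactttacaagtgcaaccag
TRAJ35, chr14:54183774-54183838: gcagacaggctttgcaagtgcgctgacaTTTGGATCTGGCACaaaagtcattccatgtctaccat
TRAJ34, chr14:54184699-54184756: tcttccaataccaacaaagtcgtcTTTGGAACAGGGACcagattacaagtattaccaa
TRAJ33, chr14:54185358-54185414: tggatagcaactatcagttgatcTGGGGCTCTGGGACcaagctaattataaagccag
TRAJ32, chr14:54186101-54186166: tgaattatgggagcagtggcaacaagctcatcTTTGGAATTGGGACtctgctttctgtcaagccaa
TRAJ31, chr14:54187895-54187951: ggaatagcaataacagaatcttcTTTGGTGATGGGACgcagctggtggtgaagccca
TRAJ30, chr14:54189866-54189924: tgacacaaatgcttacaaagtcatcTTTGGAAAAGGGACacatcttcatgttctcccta

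The pattern TNNGGNNNNGGNAC, derived from the 7 sequences and thus present in each, was found in 42 of the 43 listed J segments (97.7%). Leaving out TRAJ33, the other 6 share 9 positions of the block, and the narrower pattern TTTGGNNNNGGNAC that these give, a subset of the first, was found in 31 of the 43 (72.1%). TRAJ33 has TGGGGCTCTGGGAC there. Neither pattern was found on the opposite strand of any of the 43. The segments were 57 to 66 bases long, with TRAJ33 and TRAJ31 the shortest at 57 and TRAJ32 the longest at 66.

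The libraries differed in how finely they resolve a share. The smallest value above 0 was 0.0158%, 0.0157% and 0.0241% in wild-type replicates 1, 2 and 3, and 0.0180%, 0.0593% and 0.117% in knockout replicates 1, 2 and 3. All values were whole multiples of it within 0.01. Counts are not given, so no counting intervals were computed. Over the whole chain, 1978, 1969 and 1573 pairs were above 0 in wild type, against 1380, 555 and 374 in the knockout. Knockout replicate 1 thus stood apart from the other knockout libraries, and it shared rare pairs with wild-type replicate 1. Of 75 V–J pairs of the 7 columns found in wild-type replicate 1 alone among the wild-type libraries, 24 (32.0%) were also above 0 in knockout replicate 1, against 9 of 90 (10.0%) of those private to wild-type replicate 2 and 1 of 45 (2.22%) of those private to wild-type replicate 3. Whether material or reads passed between these 2 libraries was not tested, so a knockout share that rests on replicate 1 alone is uncertain. Results are therefore also given without knockout replicate 1.

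The first comparison asked how much of the alpha repertoire the 7 segments held with and without Satb1. Together they held 15.9%, 17.5% and 19.9% of the wild-type libraries and 10.3%, 8.07% and 6.10% of the knockout libraries. Every knockout library lay below every wild-type library, and the mean was 17.8% ± 2.02 (SD, n = 3) in wild type and 8.16% ± 2.11 (SD, n = 3) in the knockout. The flanking windows differed from this: TRAJ47 to TRAJ38, on the 5′ side, held 17.4% ± 2.91 and 19.4% ± 1.77 with overlapping groups, and TRAJ28 to TRAJ21, on the 3′ side, held 16.2% ± 0.368 and 4.50% ± 1.74 with no overlap. The difference between windows was not tested. The values are shares of RNA from whole thymocyte samples. Fewer cells using a segment, less receptor RNA in those cells and more RNA of other segments therefore cannot be told apart.

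Calls differed between the 7 segments. With limma on log2 shares across all 43 J segments, 4 of the 7 fell in the knockout (TRAJ34, TRAJ33, TRAJ31 and TRAJ30), none rose, also at an unadjusted p under 0.05 (0 of 7), and TRAJ37, TRAJ35 and TRAJ32 were not called. Among all J segments tested 46.5% were called lower and 18.6% higher, so 4 of 7 is close to the share of the whole array. Centring each library on its mean log2 value turned the split over all J segments from 8 higher and 20 lower to 12 higher and 9 lower. That mean includes J segments listed at 0 in knockout replicates 2 and 3, such as TRAJ16, TRAJ6 and TRAJ2. They enter at the small value added to every share before taking logs (the pseudocount), so all centred values depend on it. The 4 called members were those in which every knockout library lay below every wild-type library, which held for 53.5% of all J segments. The median log2 fold change was -0.96 over the 7 and -1.54 over all 43. Of the 8 segments TRAJ47 to TRAJ38, 0 were called by limma (1 higher and 0 lower at an unadjusted p under 0.05) with a median of 0.15, while after centring 4 were called higher and the median was 1.61. Of the 7 segments TRAJ28 to TRAJ21, 3 fell and 0 rose (0 higher at an unadjusted p under 0.05), with a median of -2.08, and after centring 0 were called with a median of -0.63.

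**Figure D1:**
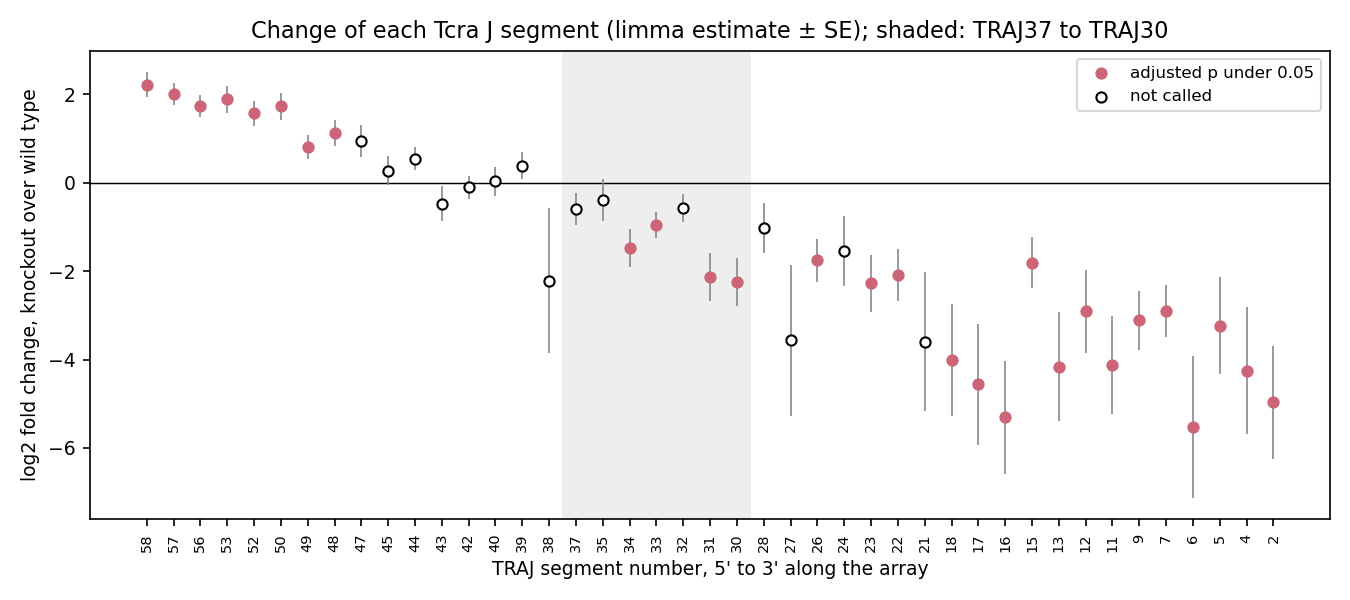
Log2 fold change (knockout over wild type, limma estimate ± SE, y axis) of each of the 43 Tcra J segments in array order (x axis), filled where the adjusted p was under 0.05. The shaded window holds 4 called and 3 uncalled segments, with the values of TRAJ31 and TRAJ30 at its 3′ end lower than those of TRAJ37 and TRAJ35 at its 5′ end.

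TRAJ37, the member nearest to the V segments, held 3.01%, 3.45% and 4.12% of the wild-type libraries and 3.18%, 2.49% and 1.52% of the knockout libraries. The groups overlapped, since knockout replicate 1 exceeded wild-type replicate 1. The means were 3.52% ± 0.556 and 2.40% ± 0.830 (SD, n = 3 each), with a log2 fold change of -0.60 ± 0.36 (SE) that was not called (limma adjusted p = 0.178).

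TRAJ35 was the scarcest member, at 0.919%, 0.676% and 0.433% of the wild-type libraries and 0.397%, 0.830% and 0.352% of the knockout libraries. Knockout replicate 2 lay within the wild-type range and the other 2 knockout libraries below it. Its log2 fold change of -0.39 ± 0.47 (SE) was not called (limma adjusted p = 0.468). The share in knockout replicate 3 equals 3 times that library's smallest value.

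TRAJ34 held 1.33%, 2.03% and 1.97% of the wild-type libraries and 0.794%, 0.830% and 0.352% of the knockout libraries. No library of one genotype reached the range of the other. In knockout replicate 3 the share was 3 times that library's smallest value. The share fell from 1.78% ± 0.388 to 0.659% ± 0.266 (log2 fold change -1.48 ± 0.43 SE, limma adjusted p = 0.0353, n = 3 each).

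TRAJ33, the J segment of MAIT cells, made up 1.63%, 1.73% and 2.43% of the wild-type libraries, against 0.938%, 0.830% and 1.17% of the knockout libraries. The groups did not overlap, and in percentage points the knockout libraries lay closer together than the wild-type libraries. The share fell from 1.93% ± 0.435 to 0.980% ± 0.175, a 1.97-fold difference (log2 fold change -0.96 ± 0.30 SE, limma adjusted p = 0.0380), although with each library centred on its mean log2 value the estimate was 0.50. It was the smallest of the 4 falls.

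TRAJ32 took 1.87%, 2.47% and 3.32% of the wild-type libraries, and 1.46%, 1.96% and 1.64% of those without Satb1. Knockout replicate 2 lay above wild-type replicate 1, so the groups overlapped. The means of 2.55% ± 0.729 and 1.69% ± 0.251 gave a log2 fold change of -0.57 ± 0.32 (SE) that was not called (limma adjusted p = 0.159).

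TRAJ31 was the most used member in wild type, at 5.01%, 4.86% and 5.34%. In the knockout it held 2.58% in replicate 1, 0.712% in replicate 2 and 0.821% in replicate 3. The wild-type libraries lay close together, while the knockout libraries spread 3.63-fold. The share fell from 5.07% ± 0.247 to 1.37% ± 1.05 (log2 fold change -2.13 ± 0.54 SE, limma adjusted p = 0.0327, n = 3 each).

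TRAJ30, the most 3′ member, had shares of 2.09%, 2.33% and 2.26% in wild type. Its knockout shares were 0.974%, 0.415% and 0.234%, the last being 2 times that library's smallest value. All knockout libraries lay below all wild-type libraries. The share fell from 2.23% ± 0.122 to 0.541% ± 0.386, a 4.11-fold difference, the largest of the 7 (log2 fold change -2.24 ± 0.54 SE, limma adjusted p = 0.0300, n = 3 each).

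**Figure D2:**
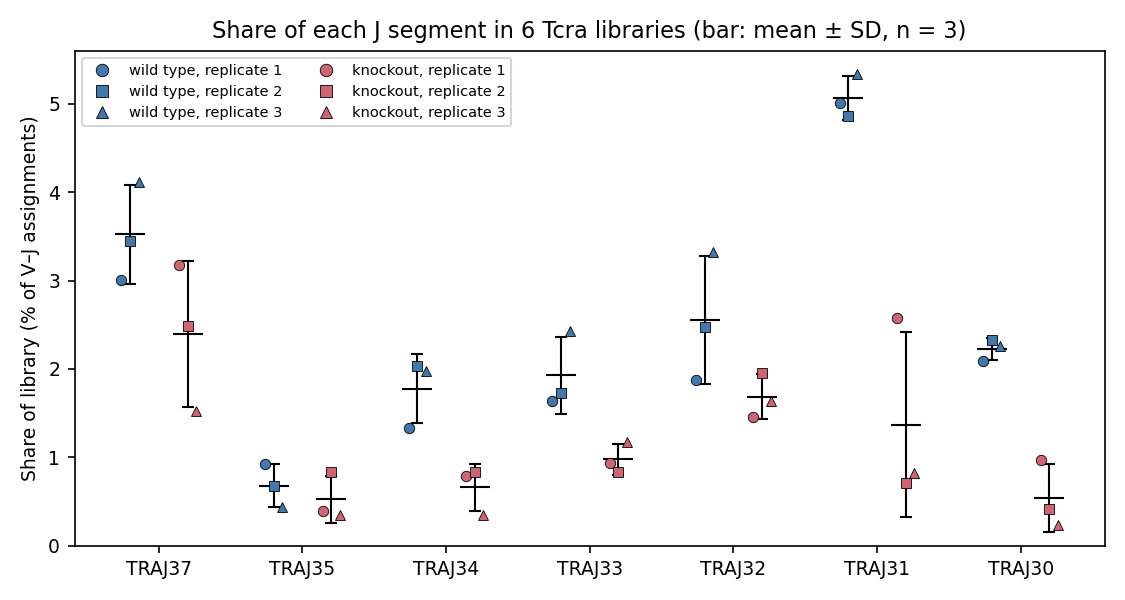
Share of each of the 7 J segments (y axis, percent of a library's V–J assignments) in the 3 wild-type and 3 knockout libraries, with bars for the mean ± SD. The groups are apart for TRAJ34, TRAJ33, TRAJ31 and TRAJ30 and overlap for TRAJ37, TRAJ35 and TRAJ32.

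The 4 calls did not hold when some single libraries were left out. All 4 missed the threshold without any single wild-type library (adjusted p between 0.0923 and 0.103) and without knockout replicate 2 (between 0.0510 and 0.0747), though the log2 fold changes stayed between -2.28 and -0.78. Without knockout replicate 1, TRAJ34 (adjusted p = 0.0318), TRAJ31 (0.00152) and TRAJ30 (0.00317) were called and TRAJ33 was not (0.0590). The knockout means without that library were 0.591% for TRAJ34, 1.00% for TRAJ33, 0.766% for TRAJ31 and 0.325% for TRAJ30. Centring each library moved the median over all J segments from -1.54 to -0.08 and left 0 of the 7 called by limma (0 also at an unadjusted p under 0.05). Counting each V–J pair above 0 once in place of its share also left 0 of the 7 called (1 at an unadjusted p under 0.05). On the centred scale TRAJ37, TRAJ35, TRAJ33 and TRAJ32 lay above 0 (0.50 to 1.06). TRAJ34 then stood at -0.02, where no difference between genotypes was left (adjusted p = 0.965), TRAJ31 at -0.67 (0.265) and TRAJ30 at -0.78 (0.201). With a variance trend in limma the calls of TRAJ34 (adjusted p = 0.0751) and TRAJ33 (0.116) were lost, as they were with only values at or above 0.117% (the least that knockout replicate 3 lists above 0; 0.185 and 0.251).

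The order of the members within the window changed as well. In wild type it ran TRAJ31, TRAJ37, TRAJ32, TRAJ30, TRAJ33, TRAJ34, TRAJ35. TRAJ31 stood above TRAJ37 and TRAJ34 above TRAJ35 in non-overlapping ranges, while the ranges of the other neighbours in that order overlapped. Compared within each wild-type library, TRAJ37 also stood above TRAJ32 every time. In the knockout the order of means was TRAJ37, TRAJ32, TRAJ31, TRAJ33, TRAJ34, TRAJ30, TRAJ35, and all neighbours overlapped. As a share of the window's own total, TRAJ37 made up 19.0%, 19.6% and 20.7% in the wild-type libraries, below its 30.8%, 30.9% and 25.0% in the knockout libraries. TRAJ31 went the other way, with 31.6%, 27.7% and 26.9% against 25.0%, 8.82% and 13.5%, and TRAJ30 with 13.2%, 13.3% and 11.4% against 9.44%, 5.15% and 3.85%. For these 3 members the 2 genotypes did not overlap, and for the other 4 they did. The ratio of TRAJ30 to TRAJ37, the 2 ends of the window, was 0.695, 0.676 and 0.550 in the wild-type libraries. In the knockout libraries it was 0.307, 0.167 and 0.154, with no overlap. The estimates did not follow position step by step, since that of TRAJ32 was nearer to 0 than those of TRAJ34 and TRAJ33, which lie 5′ of it. The ratio of TRAJ31 to its 5′ neighbour TRAJ32 was 2.68, 1.97 and 1.61 for wild type and 1.77, 0.364 and 0.500 for the knockout, where replicate 1 lay within the wild-type range. These shares and ratios are descriptions with no test.

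Likeness of pattern was measured as the root-mean-square difference over the 6 libraries of log2 shares, each segment centred on its own mean. TRAJ33 was closest to its neighbour TRAJ32 (0.315), then to TRAJ43 (0.355) and TRAJ37 (0.470). TRAJ31 and TRAJ30 were both closest to TRAJ22 (0.247 and 0.241), a segment outside the window with a mean share of 2.78% ± 0.480 (SD, n = 3) in wild type, against 0.787% ± 0.650 in the knockout. TRAJ34 was closest to TRAJ26 (0.257), and TRAJ37, TRAJ35 and TRAJ32 to TRAJ42 (0.350, 0.521 and 0.294).

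The next comparison asked which V segments supplied the 7 J segments. Of 819 possible V–J pairs in these columns, 528 were above 0 in at least 1 library, and 23 had the mean share of at least 0.1% needed for the test. TRAJ35 had none of the tested pairs, TRAJ34 had 1, TRAJ33 and TRAJ30 had 2 each, TRAJ32 had 4, TRAJ37 had 6 and TRAJ31 had 8. Across all 202 pairs tested in the chain, limma called 12.9% lower and 22.8% higher in the knockout. Of the 23, 6 fell and 0 rose (0 higher and 8 lower at an unadjusted p under 0.05). Every knockout library lay below every wild-type library in 9 of the 23, against 16.3% of all pairs tested. These counts are not evidence about the window, because a pair that reached the 0.1% mean through a single genotype had to differ. Of the 23 pairs 12 reached it with a knockout mean below 0.1%, among them all 6 called pairs (knockout means 0.0120% to 0.0739%), and 5 with a wild-type mean below it. With a filter of 0.2%, 1 of 4 pairs was called, against 43 of 68 in the whole chain (40 higher and 3 lower).

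TRAV12-2, a member of a V family present in several near-identical copies, gave 3 of the 6 called pairs. Paired to TRAJ31 it made up 0.190%, 0.315% and 0.433% of the wild-type libraries and 0.0722%, 0 and 0 of the knockout libraries. Paired to TRAJ37 it made up 0.222%, 0.299% and 0.168%, against 0.0541%, 0 and 0. Paired to TRAJ34 it made up 0.174%, 0.189% and 0.217%, against 0.0361%, 0 and 0. In all 3 pairs the groups were apart and the knockout share came from replicate 1 alone (limma adjusted p = 0.0202, 0.0205 and 0.0202). Its remaining tested pair, with TRAJ33, had wild-type shares of 0.0792%, 0.252% and 0.265% and knockout shares of 0.0902%, 0 and 0.117%, and was not called (limma adjusted p = 0.169).

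The remaining called pairs came from 3 other V segments. TRAV13-1 with TRAJ30 had wild-type shares of 0.143%, 0.157% and 0.265% and knockout shares of 0.0361%, 0 and 0 (limma adjusted p = 0.0202). TRAV3-3 with TRAJ37 had 0.143%, 0.142% and 0.265%, against 0.0902%, 0 and 0 (limma adjusted p = 0.0404). TRAV7D-5 with TRAJ31, the most abundant pair of the window in wild type, had 0.380%, 0.346% and 0.529%, against 0.162%, 0.0593% and 0 (limma adjusted p = 0.0389). The wild-type means of the 6 pairs, 0.183% to 0.419%, lie above the smallest value of each knockout library, and are under 4 times that of replicate 3. The fitted fold changes of pairs listed at 0 depend on the pseudocount, so shares are given here instead. With a smaller pseudocount 0 of the 23 pairs were called by limma (6 at an unadjusted p under 0.05), without wild-type replicate 1 or 2 none were (3 at an unadjusted p under 0.05 in each case), and without wild-type replicate 3 only TRAV12-2 with TRAJ37 was (adjusted p = 0.0489). TRAV7D-5 with TRAJ31 was also lost without knockout replicate 3 (0.0698), and TRAV3-3 with TRAJ37 without knockout replicate 2 (0.0764) or 3 (0.0740). Without knockout replicate 1 there were 10 calls among 25 pairs, all lower, against 79 of 201 in the whole chain (36 lower). Without knockout replicate 2 there were 10 among 28, of which 9 were lower, against 78 of 213 (35 lower). Over the whole chain 5 of 202 pairs were called with the smaller pseudocount. Leaving out wild-type replicate 1, 2 or 3 gave 12 of 200, 7 of 203 and 24 of 197. With near-identical V copies summed, 11 of 34 were called, all lower, against 106 of 268 in the whole chain (61 lower). TRAV7D-5 with TRAJ31 was then not called (0.0672), nor was it with no filter on low shares (0.0664). TRAV3-3 with TRAJ37 also missed the threshold with a larger pseudocount (0.0557), with no filter (0.0680) and with a variance trend (0.0567).

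**Figure D3:**
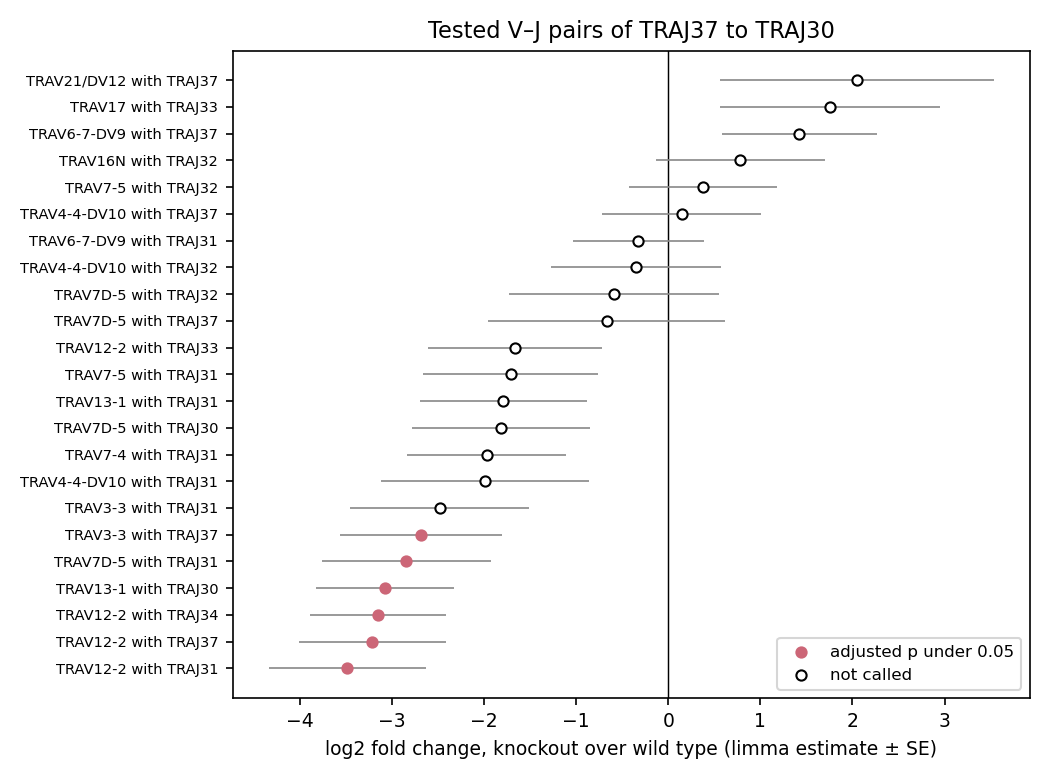
Log2 fold change (knockout over wild type, limma estimate ± SE, x axis) of the 23 tested V–J pairs of the 7 J segments (y axis), filled where the adjusted p was under 0.05. The 6 called pairs all lie below 0, and the pairs above 0 were not called.

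The V segments that led each column differed between genotypes. In wild type TRAV12-2 was first or second by mean in the columns of TRAJ37, TRAJ34, TRAJ33, TRAJ32 and TRAJ31, and TRAV7D-5, the distal copy of TRAV7-5, in those of TRAJ37, TRAJ35, TRAJ32, TRAJ31 and TRAJ30. TRAV13-1 led TRAJ30 with 0.188% ± 0.0667, and TRAV17 led TRAJ35 with 0, 0.110% and 0.0963%. The second places of TRAJ34 and TRAJ33 went to TRAV6-7-DV9 (0.116% ± 0.0336) and TRAV4-4-DV10 (0.149% ± 0.122). In the knockout the highest mean belonged to TRAV21/DV12, the V segment nearest to the J array among the alpha V segments, for TRAJ37 (0.445% ± 0.387) and TRAJ31 (0.122% ± 0.0976). It belonged to the delta segment TRDV1 for TRAJ34 (0.104% ± 0.0807), to TRAV7-4 for TRAJ35 (0.0902% ± 0.126), to TRAV17 for TRAJ33 (0.190% ± 0.298), to TRAV7D-5 for TRAJ32 (0.193% ± 0.209) and to TRAV4-4-DV10 for TRAJ30 (0.0816% ± 0.0708). The SD of most of these knockout means was close to or above the mean.

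Over the 7 columns together, TRAV21/DV12 held 0.0951%, 0.0315% and 0.385% of the wild-type libraries and 1.12%, 0.534% and 1.06% of the knockout libraries. Every knockout library lay above every wild-type library although the opposite held for the window's sum. TRAV12-2 held 0.998%, 1.27% and 1.40%, against 0.451%, 0 and 0.117%, all below the wild-type range. TRAV4-4-DV10 held 0.634%, 0.755% and 1.01%, and 1.06%, 0.534% and 0.469%, with overlapping groups. TRAV13-1, TRAV7-4, TRAV3-3 and TRAV12D-3 also lay below the wild-type range in every knockout library, while TRAV7D-5, TRAV6-7-DV9 and TRAV7-5 overlapped. Outside the window TRAV21/DV12 also had estimates above 0, such as log2 fold changes of 2.79 with TRAJ58 and 4.96 with TRAJ53. These sums over the window were not tested. The share of all V segments without overlap was not computed, so the sums are not a result about the window.

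V segments were also ranked by distance from the J array and split into 37 distal, 36 middle and 36 proximal segments, with 5 delta segments (TRDV) apart. Within the 7 columns, proximal segments supplied 52.9%, 54.7% and 60.0% of the wild-type assignments and 67.0%, 50.7% and 65.4% of the knockout assignments. Distal segments supplied 30.0%, 28.2% and 25.7%, and 21.3%, 30.1% and 9.62%. Both classes overlapped between genotypes. Over all J segments the proximal class overlapped too, but distal segments supplied 34.8%, 32.1% and 24.5%, against 20.0%, 21.7% and 14.5%, with no overlap. With the delta segments placed by position instead, proximal segments supplied 47.6%, 49.1% and 54.4% of the wild-type and 65.9%, 61.0% and 63.5% of the knockout assignments, with no overlap. The same held over all J segments, at 43.6%, 44.8% and 54.2%, against 68.5%, 68.1% and 74.8%. With only values at or above 0.117% the proximal difference between means turned from 5.12 to -1.27 percentage points. Middle segments supplied 15.9%, 16.9% and 14.3%, and 8.74%, 7.35% and 21.2%, with knockout replicate 3 above and the other knockout libraries below wild type. Over all J segments they supplied 16.4%, 17.4% and 16.0%, against 9.83%, 9.85% and 9.50%, with no overlap.

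Delta segments, which serve the delta chain but can be joined to alpha J segments, supplied 1.20%, 0.269% and 0 of the window in wild type, against 2.97%, 11.8% and 3.85% in the knockout. Every knockout library lay above every wild-type library, but with only values at or above 0.117% the groups overlapped, at 0 in all wild-type libraries and in knockout replicate 1 and at 16.7% and 3.85% in knockout replicates 2 and 3. Over all J segments they supplied 1.62%, 1.45% and 2.07%, and 11.3%, 20.6% and 12.4%, so in each of the 6 libraries the window held a smaller delta share than the whole chain. Within the window the knockout delta joins lay in the 5 more 5′ members, but in knockout replicate 3 only in TRAJ37 and TRAJ34, at its smallest value of 0.117% each. The whole TRAJ31 and TRAJ30 columns equalled 12 and 7 times the smallest value in knockout replicate 2, and 7 and 2 times in replicate 3. TRAJ31 and TRAJ30 were listed at 0 with every delta segment in all 3 knockout libraries, at the resolution given above, and at 0.0157% in wild-type replicate 2 only.

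**Figure D4:**
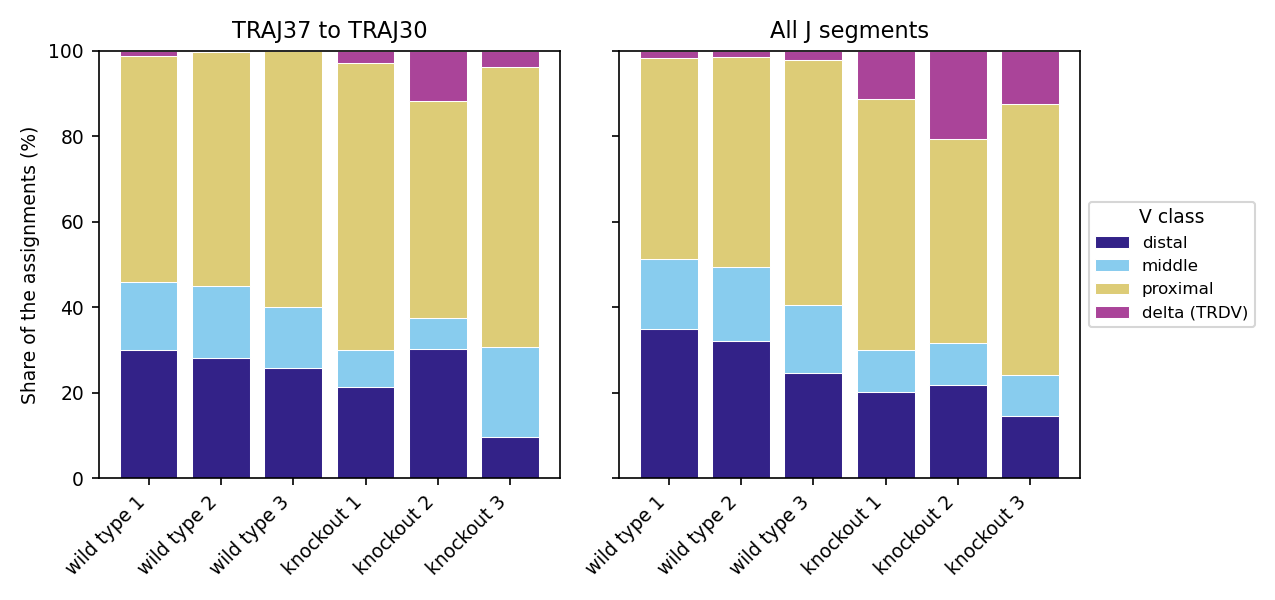
Share of assignments (y axis, percent) supplied by distal, middle, proximal and delta V segments in each of the 6 libraries, for TRAJ37 to TRAJ30 (left) and for all J segments (right). The delta share is larger in every knockout library than in any wild-type library in both panels, and smaller in the left panel than in the right one.

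The number of V segments listed above 0 in a column was lower in the knockout for 6 members with no overlap between groups, and overlapped for TRAJ35. Pairs above 0 were also fewer over the whole chain (1978, 1969 and 1573 in wild type, against 1380, 555 and 374 in the knockout). The share of all J columns without overlap was not computed, so these numbers are not a result about the window. TRAJ31 was joined to 66, 71 and 54 of the 117 V segments in wild type, against 46, 10 and 6 in the knockout. TRAJ33 was joined to 42, 38 and 38, and to 26, 4 and 9. TRAJ30 was joined to 42, 52 and 38, and to 26, 4 and 2. The smallest value differed between libraries as well, being 0.0593% and 0.117% in knockout replicates 2 and 3, and its part in these numbers was not tested. Knockout replicate 1, whose smallest value of 0.0180% lies below the 0.0241% of wild-type replicate 3, listed fewer V segments than that library for each member but TRAJ35. Counting only V segments at or above 0.117%, TRAJ31 had 12, 11 and 17 in wild type, against 6, 2 and 6 in the knockout, and TRAJ30 had 4, 5 and 4, against 1, 2 and 2. TRAJ33 then had 2, 2 and 7, and 0, 2 and 9, with overlapping groups, as for the remaining 4 members.

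**Figure D5:**
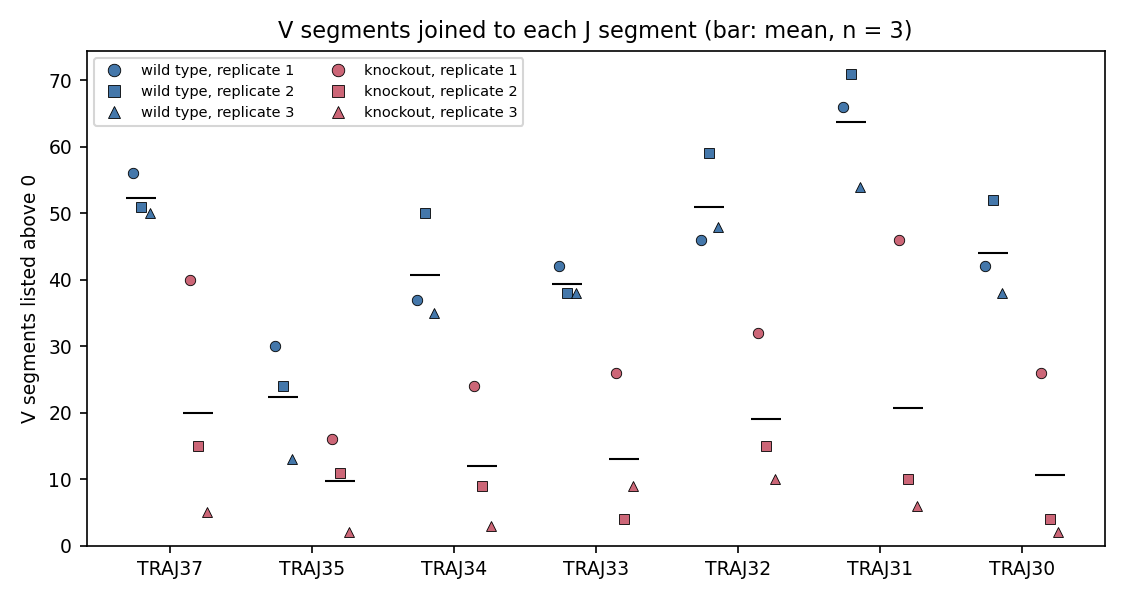
Number of V segments listed above 0 with each of the 7 J segments (y axis) in the 3 wild-type and 3 knockout libraries, with bars for the mean. Knockout replicate 1 lies above the other 2 knockout libraries in every column.

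Few V segments made up some of the columns in the coarser knockout libraries. In knockout replicate 2, TRAV17 alone held 0.534%, or 64.3% of the TRAJ33 column, and the delta segment TRDV2-2 a further 21.4%. In knockout replicate 3, TRAV21/DV12 and TRAV4-4-DV10 held 46.2% and 23.1% of the TRAJ37 column. In the same library TRAJ30 was listed with 2 V segments only, TRAV7N-4 and TRAV12-1, at 0.117% each. The TRAJ33 column of knockout replicate 2 and the TRAJ37 column of replicate 3 equalled 14 and 13 times the library's smallest value. Other columns were more even. TRAJ33 in knockout replicate 3 had 9 V segments with a top share of 20.0%, and TRAJ32 in replicate 2 had 15 with a top share of 21.2%.

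The MAIT pair was looked for last. TRAV1 with TRAJ33 had shares of 0.0158%, 0.0157% and 0 in wild type, equal to the smallest value above 0 in replicates 1 and 2. Each knockout library listed the pair at 0. At that smallest value TRAV1 was tied for last place among the V segments listed with TRAJ33. The tie ran from rank 24 to 42 in wild-type replicate 1 and from rank 23 to 38 in replicate 2. If V and J segments were joined independently, the product of the TRAV1 and TRAJ33 shares would be 0.0241%, 0.0158% and 0.0158% in wild type, near or above the listed values, and 0.00220% in knockout replicate 1, below that library's smallest value. TRAV1 was not listed with any J segment in knockout replicates 2 and 3. Within the window TRAV1 had higher wild-type means with TRAJ31 (0.158%, 0.0315% and 0.0481% in wild type, against 0.0180%, 0 and 0), TRAJ30 (0.0158%, 0.0315% and 0.144%, against 0 in each knockout library) and TRAJ34 (0.0634%, 0 and 0.0722%, against 0.0180%, 0 and 0) than with TRAJ33, although in wild-type replicate 1 TRAJ30 equalled TRAJ33 and in replicate 2 TRAJ34 was at 0. A loss of the MAIT pair in the knockout was not detectable at this resolution.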

How the data were processed

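T cell receptor alpha transcripts of thymocytes were measured in 6 Tcra libraries, 3 per genotype. The files hold percent values that the authors computed and deposited: each table lists 117 V by 43 J segments and its cells sum to 100. Per the submitters' processing notes fastp was used; the sources used here do not give the aligner, segment caller, genome build or whether reads or clonotypes were counted, and name no molecular identifiers. Depth is not stated, and resolution is given instead. Groups came from the sample titles. The authors' sum row and column were left out. Features with a mean share of at least 0.1% (43 J segments, 202 V–J pairs) entered limma 3.58.1 (R 4.3.3) as log2(percent + 0.0157), the pseudocount being the smallest value above 0 in any of the 6 libraries. Fold changes are on that scale, and those of low shares depend on the pseudocount in size. A 0 in knockout replicates 2 and 3 enters as 0.0157%, below their smallest values of 0.0593% and 0.117%. For TRAV12-2 with TRAJ31 the log2 fold change was -3.49, against -5.71 with a pseudocount of 0.00157% and -1.60 with 0.117%. Adjusted p-values are Benjamini-Hochberg values over all features of a kind, called at 0.05. Segments were placed by name in GENCODE M21 (GRCm38): all 43 J and 114 of 117 V segments matched, and J sequences are its transcript sequences. The named pairs were every called pair of the 7 columns, TRAV1 with TRAJ33, and the top 2 wild-type and top knockout V segment of each column; likeness was listed for each member. The members, lists and rules were chosen with earlier results of these data known. Python 3.11.15, numpy 2.4.6, pandas 2.3.3 and matplotlib 3.10.9 were used. Tables of the other 3 chains were not used. The alternatives tried were other pseudocounts and filters, leaving out each library, a replicate block, centring, a variance trend, counting each pair once, keeping only cells at or above 0.117%, placing delta V segments by position and, chosen after seeing the data, summing V copies.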

Additional observations from a re-analysis of the deposited data

How the results depend on the processing

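Of the 43 J segments, 28 were called by limma, but 16 with a smaller pseudocount, 0 when each V–J pair above 0 was counted once (16 at an unadjusted p under 0.05), and 0 to 28 when a library was left out. Of the 7 members 4 were called, but 2 with a variance trend, 2 with only cells at or above 0.117%, 0 after centring, 0 with each pair counted once, and 0 to 4 when a library was left out. Centring reversed TRAJ37 (0.85), TRAJ35 (1.06), TRAJ33 (0.50) and TRAJ32 (0.89), and the restriction to cells at or above 0.117% reversed TRAJ35 (3.13), whose wild-type cells all lie below that value. After centring TRAJ34 stood at -0.02, TRAJ31 at -0.67 and TRAJ30 at -0.78, where 0 is the average change of the J segments. That average includes segments listed at 0 in knockout replicates 2 and 3, so it depends on the pseudocount. Of all V–J pairs 72 were called, but 5 with the smaller pseudocount, 140 with no filter, 43 with a filter of 0.2%, 36 after centring, and 7 to 79 when a library was left out. With only cells at or above 0.117% 82 were called, and with copies summed 106. The split turned with the scaling, from 46 higher and 26 lower to 9 higher and 27 lower after centring. Of the members' pairs 6 were called, but 0 with the smaller pseudocount, 19 with no filter, 1 with the filter of 0.2%, 11 with only cells at or above 0.117%, 11 with copies summed, and 0 to 10 when a library was left out; a left-out wild-type library can also take a pair under the filter. The summed share differed by -9.60 percentage points, by -4.61 with each pair counted once, by -12.5 with only cells at or above 0.117%, and by -10.7 to -8.54 when a library was left out. The middle V class differed by -3.26 points over the window, by 4.84 with only cells at or above 0.117%; leaving out a library gave -7.63 to -0.73 for it, -12.5 to -2.19 for the distal, 2.16 to 10.3 for the proximal and 2.92 to 7.32 for the delta class. The cause of these differences was not tested. Equal replicate numbers were not taken as pairs: residuals of equal numbers correlated at 0.226, -0.201 and 0.274 over J segments and at 0.0634, 0.135 and 0.170 over V–J pairs, where each library correlated best with its own number. With the replicate block 21 J segments, 2 of the 7 members (TRAJ31 and TRAJ30, adjusted p = 0.0414 each, against 0.0658 for TRAJ34 and TRAJ33), 84 V–J pairs and 7 of the members' pairs were called. Resolution limits what can be said of pairs near or below 0.117%.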
